A study of Mus musculus with 8 samples.

Results

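The mouse embryonic stem cell line D2 5-5, of the inbred strain DBA/2J and called D2 here, was compared with the line B6 5-1, of C57BL/6J and called B6, by H3K27ac HiChIP. The comparison used 4 of the 8 libraries of the series, 2 technical replicates of D2 and 2 of B6. All loops with at least 5 counts in at least 2 of the 8 libraries were taken, which gave 44706 of the 415681 loops in the deposited table. The counts of every loop touching an anchor were also summed, and 21211 of the 30044 anchors reached 10 counts in 2 or more libraries. The other 4 libraries came from the congenic lines B6-13D2 (line QJ 6-1, strain B6.D2-(rs30079041-rs51756099)/Bakr) and D2-13B6 (line XE 2-4, strain D2.B6-(rs29224292-rs13469455)/Bakr in the sample labels, with rs51756099 as the second marker in the series text). The first is B6 with an interval of chromosome 13 from D2, and the second is D2 with an interval from B6. They entered the fit to estimate the spread between replicates, and as a second pair of D2 and B6 backgrounds that shares no library with the parental pair. All lines were grown in serum with LIF and the kinase inhibitors PD0325901 and CHIR99021, a medium that holds stem cells in a naive state. Each strain was represented by 1 line, so the p-values below measure the spread between libraries of a line, not between lines of a strain.

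HiChIP ligates DNA fragments that were neighbours in the folded chromatin and pulls down those carrying a chosen histone mark. The mark here, acetylation of lysine 27 of histone H3, lies on active promoters and enhancers, so a read pair reports a contact made by an acetylated site, and a higher count can come from more acetylation, more contact or more copies of the DNA. Embryonic stem cells keep the promoters of pluripotency factors such as Pou5f1, Sox2 and Nanog acetylated, while genes of differentiated lineages carry little of the mark. DBA/2J and C57BL/6J are classical laboratory strains whose genomes differ at many single bases, insertions and deletions, and gene families with many similar copies vary in copy number between them.

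Libraries held 952040 and 737955 read pairs in B6 and 831446 and 768078 in D2. The median tested loop had 5 to 7 counts and the median tested anchor 27 to 32 counts in these libraries. Libraries differed in base composition, with B6 replicate 1 and B6-13D2 replicate 1 at opposite ends. The 25% of anchors with the lowest GC content took 16.2% of the anchor counts of B6 replicate 1, against 18.8% in B6 replicate 2 and 18.7% and 19.9% in D2. The share was 20.48% and 17.85% in B6-13D2 and 17.9% and 17.6% in D2-13B6. Total counts of calls and many counts of gene lists are therefore also given without B6 replicate 1, the lowest of the 4 parental libraries. Chromosome 11 took up 13.9% and 14.0% of all read pairs in D2-13B6 and 10.0% to 10.6% in the other 6 libraries, which touches the congenic values of genes on it. All 10 promoter anchors of the embryonic stem cell markers were measured, with Pou5f1 at 803 and 616 counts per 1e6 read pairs (CPM, scaled with TMM factors) in B6 and 645 and 655 in D2, and Nanog at 831 and 704 in B6 and 785 and 811 in D2. Of the 10, 2 were called higher in D2 (Sox2 and Klf4, given below) and 0 lower, 20% beside 10.1% of all promoter anchors. Among markers of other cell types, tested promoter anchors existed for 1 of 6 primitive endoderm genes (Pdgfra, 8.85 to 12.4 CPM in the 4 parental libraries), 1 of 6 fibroblast genes (Col1a2, 19.2 to 35.4 CPM), 1 of 4 neural genes (Nes, 18.7 to 31.6 CPM), 0 of 5 trophectoderm genes and 0 of 4 mesoderm genes, and none of the 3 measured ones passed the test. The lines did not overlap at any of the 3, but they also did not overlap at 50.4% of all tested anchors. Log2 fold changes were -0.25 for Pdgfra, 0.71 for Col1a2 and 0.42 for Nes at these low levels. The part of other cell types in the results was not tested.

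The promoters of 4 genes named below for their differences are printed here from RefSeq (GRCm38.p6, 250 bases before to 50 after the start), with matches to any of 5 motifs in capitals. Samd9l was higher in D2, Trim12a was nearly lost in D2, Hist1h4k (H4c12 in RefSeq) stands for the histone genes, and Nlrp4f differed in opposite directions in the parental and the congenic pair. The motifs, searched on both strands, were GGGCGG for the GC box, CCAAT for the box of that name, TATAAA for the TATA box, ATGCAAAT for the octamer bound by POU factors, and CACGTG for the E-box. No match overlapped another in these windows.
Samd9l, chr6:3399522-3399821, minus strand: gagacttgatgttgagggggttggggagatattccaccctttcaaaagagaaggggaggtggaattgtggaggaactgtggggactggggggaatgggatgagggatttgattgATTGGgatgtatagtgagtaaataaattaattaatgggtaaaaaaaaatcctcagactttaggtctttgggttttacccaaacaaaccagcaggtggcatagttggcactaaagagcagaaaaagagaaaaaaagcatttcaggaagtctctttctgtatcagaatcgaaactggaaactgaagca
Trim12a, chr7:104315446-104315745, minus strand: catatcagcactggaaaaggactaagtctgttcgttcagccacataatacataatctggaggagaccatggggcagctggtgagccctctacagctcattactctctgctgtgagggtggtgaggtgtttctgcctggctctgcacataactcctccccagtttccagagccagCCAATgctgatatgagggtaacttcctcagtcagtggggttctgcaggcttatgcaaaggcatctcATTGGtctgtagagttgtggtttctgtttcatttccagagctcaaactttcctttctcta
Hist1h4k, chr13:21750504-21750803, minus strand: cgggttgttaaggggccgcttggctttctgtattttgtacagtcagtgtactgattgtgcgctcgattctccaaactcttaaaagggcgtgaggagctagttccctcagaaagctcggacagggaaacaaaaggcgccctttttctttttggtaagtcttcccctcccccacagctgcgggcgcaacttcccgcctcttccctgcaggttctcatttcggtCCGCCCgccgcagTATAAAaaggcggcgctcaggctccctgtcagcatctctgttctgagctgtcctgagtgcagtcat
Nlrp4f, chr13:65205667-65205966, minus strand: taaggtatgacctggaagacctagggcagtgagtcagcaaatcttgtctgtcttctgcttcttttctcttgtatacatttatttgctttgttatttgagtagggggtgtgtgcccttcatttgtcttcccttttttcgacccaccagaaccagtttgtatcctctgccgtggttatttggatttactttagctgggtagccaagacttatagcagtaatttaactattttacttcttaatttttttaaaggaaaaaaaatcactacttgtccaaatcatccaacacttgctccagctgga

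In these windows the Hist1h4k promoter held TATAAA beginning at position -16 from the RefSeq start and a GGGCGG on the reverse strand at -29. The Trim12a promoter held CCAAT on both strands, at -76 and -10, and the Samd9l promoter held 1 reverse CCAAT, while none of the 5 motifs matched in the Nlrp4f window. Over all 27025 promoters of the same length, GGGCGG occurred in 35.9%, CCAAT in 37.9%, TATAAA in 14.2%, ATGCAAAT in 1.75% and CACGTG in 7.24%. The sequences are those of the C57BL/6J reference, and a match is a description of letters, not of a bound site.

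D2 and B6 differed at 1185 of the tested loops (2.65%), with 617 higher in D2 (1.38%) and 568 lower (1.27%), at a false discovery rate (FDR) of 0.05 in edgeR's quasi-likelihood test. Of the tested anchors 2495 differed (11.8%), 1197 higher in D2 (5.64%) and 1298 lower (6.12%). The median size of a called difference was 1.48 on the log2 scale for loops and 0.86 for anchors, and 899 loops and 954 anchors differed by more than 2-fold. Both libraries of one line lay above both of the other for 1183 of the 1185 called loops and 2489 of the 2495 called anchors, while the same held for 42.0% of all tested loops and 50.4% of all tested anchors. DESeq2 called 338 loops (0.756%) and 855 anchors (4.03%), all of them among those above. Without B6 replicate 1, the counts were 491 loops and 1232 anchors. Without D2 replicate 1 there were 386 higher and 265 lower loops and 1228 anchors, and without D2 replicate 2 there were 542 loops and 1075 anchors.

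Contacts inside an anchor differed most often. They were called in 8.59% of 2013 distal anchors, in which no protein-coding gene starts, and in 7.07% of 2673 promoter anchors. The share was 3.32% for loops between distal anchors, 2.00% for promoter-distal loops and 1.22% for promoter-promoter loops. DESeq2 called 3.28% inside distal anchors and 3.59% inside promoter anchors. It called 0.712% of distal-distal, 0.444% of promoter-distal and 0.236% of promoter-promoter loops. The share in edgeR fell with distance, from 7.73% inside an anchor to 3.03% under 100 kb, 0.909% between 100 and 500 kb and 0.55% beyond 500 kb. With DESeq2 these shares were 3.46%, 0.699%, 0.122% and 0.097%. Deeper loops can be called at smaller differences, so classes were also set against each other at like levels. Among loops with a mean of 32 to 64 CPM, 14.9% of loops inside distal anchors, 13.9% of distal-distal, 7.71% of loops inside promoter anchors, 6.81% of promoter-distal and 5.51% of promoter-promoter loops were called. At that level the classes without a promoter had the higher shares. The fall with distance was smaller at like levels: between 8 and 16 CPM the shares were 3.66% inside an anchor, 3.24% under 100 kb, 1.79% between 100 and 500 kb and 1.74% beyond, and between 16 and 32 CPM they were 6.92%, 5.06%, 2.59% and 4.08%, the last from 2 of 49 loops.

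Anchors were also set against each other by class. Of 8430 promoter anchors 852 were called (10.1%), 448 higher in D2 (5.31%) and 404 lower (4.79%). Of 12781 distal anchors 1643 were called (12.9%), 749 higher (5.86%) and 894 lower (6.99%). DESeq2 called 153 promoter anchors higher and 154 lower, and 265 and 283 distal anchors, so the excess of higher promoter anchors was not kept. Distal anchors were called more often than promoter anchors in each of 5 bands of level, from 5.16% against 2.15% under 16 CPM to 28.9% against 18.7% over 128 CPM. By GC content the order was the same except in the 25% of anchors with the lowest GC content, where 13.5% of distal and 15.8% of promoter anchors were called. Without B6 replicate 1 the shares were 4.56% of promoter and 6.63% of distal anchors. Position within genes went with direction: distal anchors inside a gene body were lower in D2 more often than higher, with 515 against 262, whereas distal anchors outside genes were higher more often, with 487 against 379. DESeq2 called 89 higher and 151 lower in gene bodies, and 176 and 132 outside genes. The median log2 fold change of gene-body anchors was -0.079, and lay from -0.095 to -0.059 with any 1 parental library left out. Outside genes the median was 0.014, and lay from -0.0018 to 0.075.

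**Figure D1:**
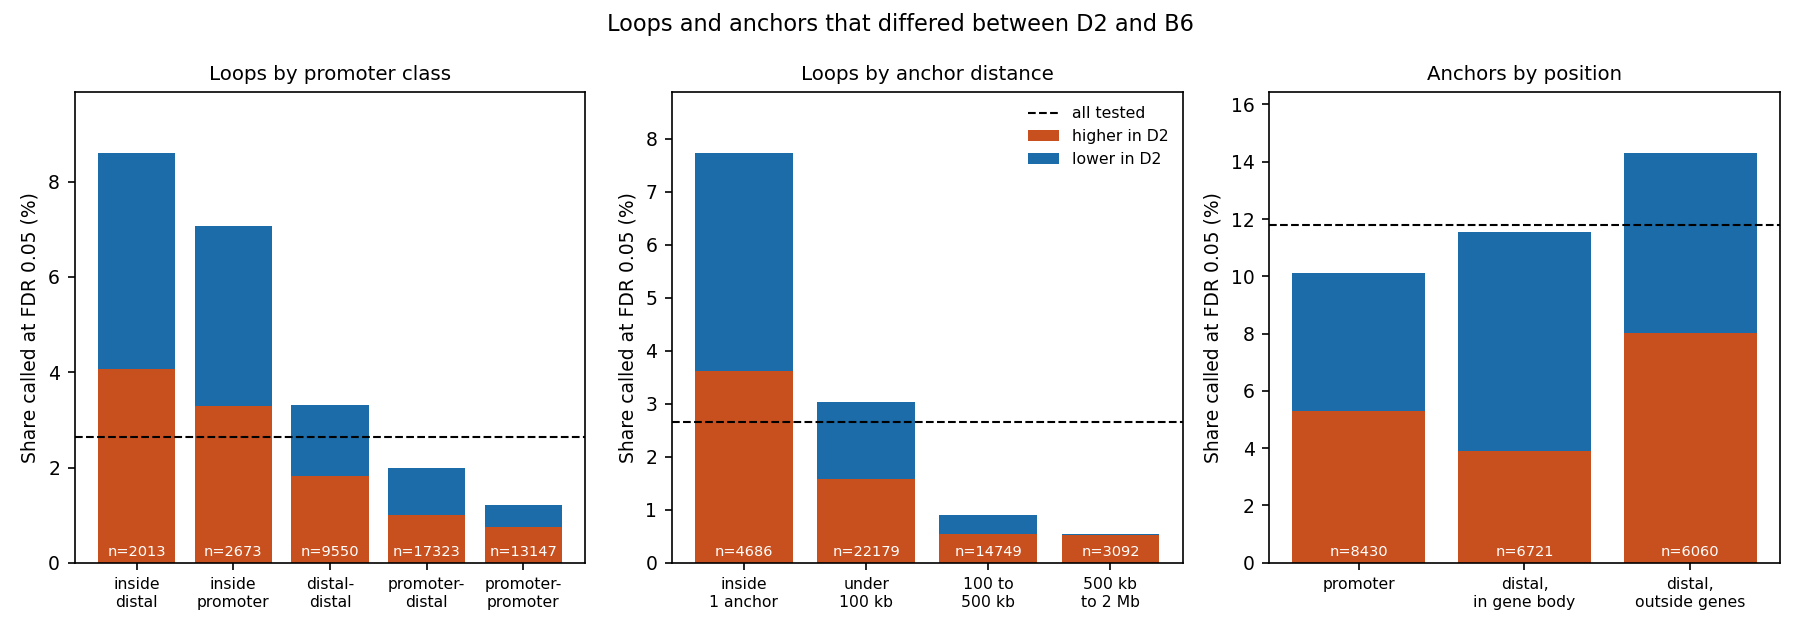
Share of tested loops and anchors that differed between D2 and B6, as a percentage of each class, split into higher (orange) and lower (blue) in D2, with the number tested printed in each bar and the share over all tested loops or anchors as a dashed line. Loops inside anchors reach 8.59% and 7.07%, promoter-promoter loops 1.22%, and among the anchor classes the distal anchors in gene bodies have more lower than higher calls, 515 to 262.

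Direction followed base composition. In the 25% of anchors with the lowest GC content, 534 were higher in D2 and 208 lower, while in the 25% with the highest GC content 102 were higher and 377 lower. Without B6 replicate 1, the library with the fewest low-GC counts, the share of called anchors that were higher fell from 72.0% to 53.8% at the lowest GC content, and rose from 21.3% to 39.1% at the highest. The shares were 82.1% and 13.7% without B6 replicate 2, 78.9% and 22.1% without D2 replicate 1, and 64.5% and 25.6% without D2 replicate 2. A fit with the trend on GC content removed, chosen after seeing the data, centres each range of GC content by construction, so its balance by GC content shows nothing. In that fit the split in gene bodies was 250 higher and 626 lower, distal anchors outside genes were 458 higher and 422 lower, and promoter anchors were 569 higher and 414 lower.

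Promoter anchors were named by smallest FDR, at least 1 Mb apart, with those of the 6 strongest loops left out. Nod1 and Btn2a2, left out in this way, are given with their gene lists below. The 8 named anchors lower in D2 ranged from a near loss at a TRIM gene to differences of about 2-fold. The anchor of Trim12a (chr7:104310001-104320000), a rodent TRIM protein of the group that includes the antiviral factor TRIM5, had 64.3 and 74.1 CPM in B6 and 3.41 and 3.79 in D2. The D2 libraries held 3 counts each at this anchor. The log2 fold change was -4.21 with a standard error (SE) of 0.392 and an FDR of 3.93e-15. At Nlrp4f (chr13:65200001-65230000), a NOD-like receptor gene of a family expressed in oocytes, the B6 libraries had 365 and 332 CPM and the D2 libraries 114 and 144, a log2 fold change of -1.44 (SE 0.143, FDR 6.7e-14). The anchor of Ubd and the olfactory receptor gene Olfr94 (chr17:37185001-37205000) had 285 and 277 CPM in B6 and 100 and 105 in D2, and the log2 fold change was -1.46 (SE 0.149, FDR 3.24e-13). Ubd encodes a ubiquitin-like modifier induced by inflammatory cytokines. Pdpn, which encodes the membrane glycoprotein podoplanin, had 510 and 447 CPM in B6 and 224 and 193 in D2, and the log2 fold change was -1.20 (SE 0.128, FDR 2.28e-12).

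The other 4 lower anchors were those of the predicted gene Gm21915, the late endosomal protein gene Stard3nl, Ypel2, and the stress granule factor Zfand1 with its neighbour Chmp4c. Gm21915 fell from 779 and 702 CPM to 244 and 250, with a log2 fold change of -1.58 (FDR 1.48e-19). Stard3nl had 133 and 134 CPM in B6 and 31.8 and 37.9 in D2, a log2 fold change of -1.94 (FDR 2.5e-12). Ypel2 had 673 and 580 CPM against 300 and 303, and Zfand1 830 and 921 against 415 and 503, with log2 fold changes of -1.06 and -0.93. These 8 anchors were named on the condition that both D2 libraries lay below both B6 libraries.

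The named promoter anchors higher in D2 numbered 8. Samd9l (chr6:3380001-3400000), an interferon-inducible gene of antiviral defence and growth control, had 15.6 and 28.1 CPM in B6 and 102 and 154 in D2, and the log2 fold change was 2.58 (SE 0.247, FDR 1.46e-14). Its difference lay in loops that leave the anchor, since the sum of loops inside the anchor alone gave -0.029 (FDR 0.988). Klf12 (chr14:100280001-100290000), a Kruppel-like repressor, had 11.4 and 28.1 CPM in B6 and 90.9 and 83.4 in D2, so that the log2 fold change was 2.20 (SE 0.263, FDR 1.73e-10). Adam23, an ADAM family surface protein, had 80.9 and 97.1 CPM in B6 and 235 and 265 in D2, so that the log2 fold change was 1.50 (SE 0.157, FDR 8.51e-13). That both D2 libraries were above both B6 libraries was required of every named anchor higher in D2.

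Glo1, the glyoxalase that detoxifies methylglyoxal, and the histone gene anchor Hist1h4k are described with their neighbours below. Txlnb, a taxilin of muscle, had 71.6 and 80.5 CPM in B6 and 197 and 230 in D2, and Slc35g1, a solute carrier, had 138 and 147 against 301 and 320. Rmc1, a subunit of an exchange factor complex of late endosomes, rose from 251 and 263 to 491 and 549. Their log2 fold changes were 1.49, 1.13 and 1.02, with FDR of 1.14e-11, 5.68e-10 and 2.61e-10. These anchors, too, were chosen without overlap between the lines. Of the 16 named anchors, 15 were called in every alternative fit, and Samd9l was lost in the 1 fit given above.

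**Figure D2:**
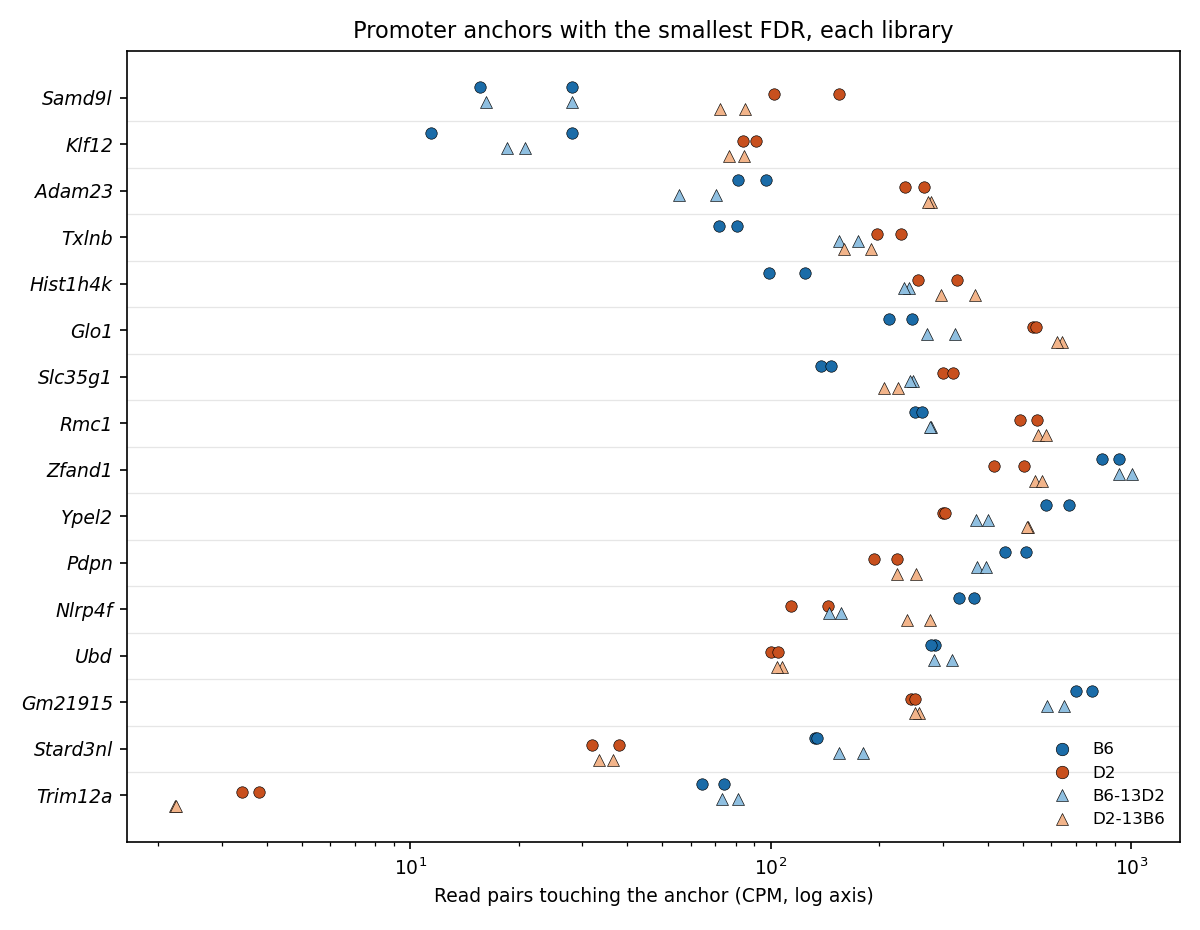
Read pairs touching each of 16 promoter anchors in CPM (log axis), 1 point per library, circles for the parental lines and triangles for the congenic lines. By the rule that named these anchors, the D2 circles lie right of the B6 circles for the upper 8 genes and left of them for the lower 8. At Nlrp4f, Ypel2 and Slc35g1 the triangles stand in the opposite order to the circles.

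Counts at the named anchors were also read per 5-kb bin from the deposited file of each library. In 14 of the 16 named anchors every bin differed in the direction of the anchor without overlap between the lines. The exceptions were Zfand1, with 11 of 12 bins, and Slc35g1, with 4 of 5, and 0 bins differed without overlap in the opposite direction. These anchors were chosen for lack of overlap in their sums, of which the bins are parts. A read pair joining bins of the same anchor counts in each of them. No share of such bins in other anchors is given here, so how far a difference extends along an anchor was not tested. The bin with the most difference held a start of the gene at Samd9l, Ubd, Glo1 and Hist1h4k. At Nlrp4f that bin held no start, with 119 and 125 CPM in B6 and 29.5 and 29.1 in D2.

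**Figure D3:**
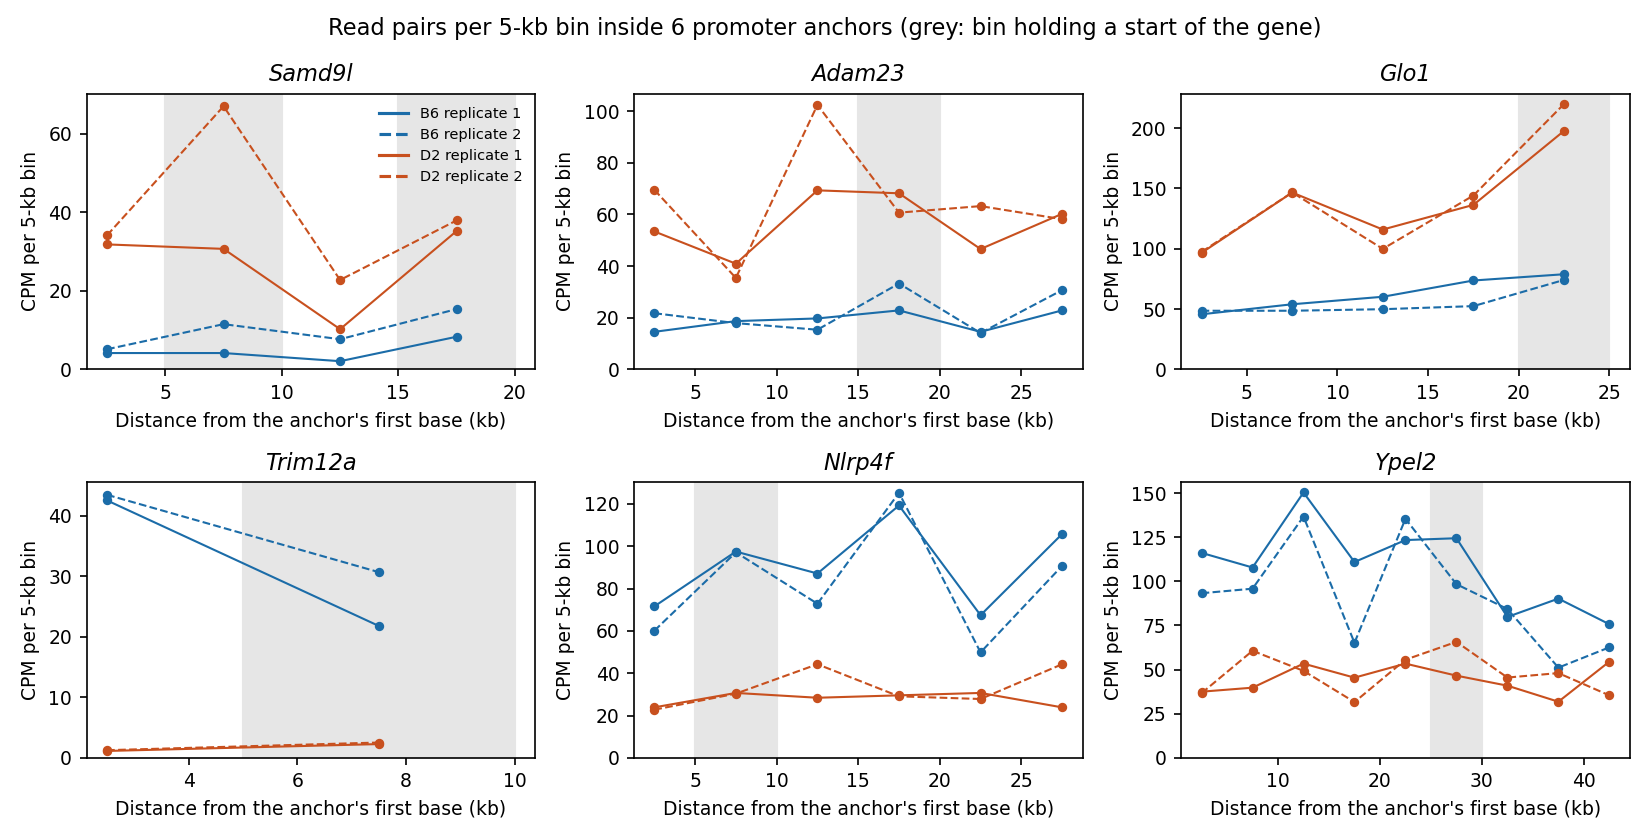
CPM in each 5-kb bin of 6 promoter anchors, against the distance in kb from the first base of the anchor, with 1 line per library (solid and dashed for the replicates) and bins holding a start of the gene in grey. At Trim12a both bins of D2 lie near 0, and the lines of D2 and B6 do not cross in any of the 6 anchors.

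Loops named within each class, leaving out the 6 strongest of all, showed the same range. Among promoter-distal loops, the one from Tdgf1 and Lrrc2 to a distal anchor 25 kb away (chr9:110935001-110970000 to chr9:110975001-110980000) had 28 and 17 counts in B6 and 102 and 87 in D2, so that the log2 fold change was 2.16 (SE 0.238, FDR 1.69e-16). Tdgf1 encodes Cripto, a co-receptor of Nodal made by pluripotent cells, and Lrrc2 is its neighbour. The loop from Samd9l to a distal anchor 37.5 kb away had 1 and 3 counts in B6 and 52 and 75 in D2, a log2 fold change of 5.01 (FDR 2.32e-27). In the opposite direction, the loop of Trim12a to a distal anchor in its own body had 40 and 32 counts in B6 and 0 in both D2 libraries, so it was at least 22.7-fold lower with D2 set at a floor of 3 counts over its 2 libraries (FDR 1.27e-17). The loop from Nlrp4f to a distal anchor 25 kb away had 111 and 75 counts against 23 and 39.

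Of 13147 promoter-promoter loops 160 were called, 99 higher in D2 and 61 lower. DESeq2 called 31, with 23 higher and 8 lower. Fam32a and Ap1m1, 20 kb apart on chromosome 8, were joined by 7 and 6 counts in B6 and 44 and 47 in D2, a log2 fold change of 2.88 (FDR 3.11e-12). Ap1m1 encodes a subunit of the AP-1 adaptor of vesicle coats. The loop between the anchor of Rnf39, Ppp1r11, Zfp57 and H2-M5 and that of Ubd on chromosome 17 had 75 and 61 counts in B6 and 19 and 16 in D2 (log2 fold change -1.86, FDR 3.09e-09). It joins genes of the extended histocompatibility region. A loop within Ppp2r3d on chromosome 9 had 50 and 49 counts against 11 and 13. Lack of overlap between the libraries of D2 and B6 was a condition for naming these loops.

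Several distal loops went from few counts in B6 to over 100 in D2. Inside a distal anchor on chromosome 1 (chr1:101750001-101775000) the B6 libraries had 8 and 13 counts and the D2 libraries 139 and 149, a log2 fold change of 3.86 (SE 0.259, FDR 2.98e-46). Inside another on chromosome 4 (chr4:53315001-53355000) there were 67 and 33 counts against 273 and 277. Both lie outside the bodies of protein-coding genes. The distal-distal loop at chr7:34520001-34550000 had 10 and 6 counts in B6 and 143 and 125 in D2 (log2 fold change 4.14, FDR 2.35e-46), and the one at chr13:19950001-19970000 had 11 and 12 against 142 and 153. Lower in D2 were an anchor in the body of Btaf1 (211 and 159 counts inside it against 56 and 71) and distal loops at chr15:73650001-73685000 (99 and 50 against 19 and 13) and chr6:136990001-137020000 (50 and 35 against 6 and 5). An anchor at chr5:104720001-104745000 had 26 and 28 counts inside it in B6 and 0 in D2, at least 17.0-fold lower with D2 set at the same floor (FDR 1.68e-13).

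Loops inside promoter anchors completed the named set. Those at Gm21915 (316 and 239 counts in B6, 81 and 68 in D2) and Pdpn (269 and 150 against 67 and 50) were lower, with log2 fold changes of -1.80 and -1.73. Those at Adam23 (31 and 28 against 91 and 98) and at the zinc finger genes Gm49345 and Zfp729a (9 and 3 against 47 and 49) were higher, by 1.77 and 3.07. At Gm49345 and Zfp729a the anchor sum as a whole, with 115 and 87 counts in B6 and 122 and 102 in D2, was not called (log2 fold change 0.21, FDR 0.453). All 20 named loops kept their direction and their call in each alternative fit that held them.

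Loop and anchor differences went together. Of 823 called loops between separate anchors, 500 had both anchors called in the direction of the loop, 231 had 1 and 92 had none, while 10 had an anchor called in the opposite direction. A loop and its anchors share read pairs, so these are not separate measurements. An anchor called in the same direction was present for 88.8% of called loops and 23.2% of the 40020 tested loops between anchors. Called anchors also lay in runs. For 34.2% of called anchors the next tested anchor on the chromosome was called in the same direction, and for 0.763% in the opposite one, where 5.64% of all tested anchors were called higher and 6.12% lower. Neighbouring anchors share the read pairs of the loops between them, so these too are not separate measurements. There were 32 runs of at least 5 neighbouring anchors, 13 higher and 19 lower in D2.

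The longest run held 11 anchors over 275 kb of chromosome 7 (chr7:34385001-34660000), with the starts of Lsm14a, an RNA-binding protein of P-bodies, and Kctd15, an inhibitor of neural crest formation. Its summed level was 1036 and 845 CPM in B6 and 2399 and 2349 in D2. Around Klf12, 6 anchors (chr14:100245001-100465000) summed to 76.7 and 151 CPM in B6 and 410 and 407 in D2. Around Ptpn12, a tyrosine phosphatase gene, 6 anchors rose from 156 and 169 to 428 and 385. Other runs held histone or zinc finger genes, and some held no start of a protein-coding gene. Among the lower runs, Rerg, a Ras-related growth inhibitor, lay in 9 anchors (chr6:136990001-137195000) with 931 and 1002 CPM in B6 and 370 and 298 in D2. Kif11, the mitotic kinesin Eg5, and Ide, the insulin-degrading enzyme, lay in 7 anchors (chr19:37250001-37380000) with 1360 and 1263 against 498 and 423. Chst3 and Psap, the sulfotransferase of chondroitin and the precursor of saposins, lay in 6 anchors with 1015 and 758 against 463 and 455, and Dock5, a guanine nucleotide exchange factor, in 6 with 1182 and 1081 against 646 and 664.

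Gene lists were then followed through their promoter anchors, beside the 10.1% of all promoter anchors that were called and their median log2 fold change of 0.05. The clearest group were the replication-dependent histone genes, which supply core and linker histones in S phase. Their 64 genes lay in 14 tested anchors, of which 13 were higher in D2 and 0 lower, with a median log2 fold change of 1.03. Summed over the 14 anchors, the B6 libraries had 1667 and 2040 CPM and the D2 libraries 3516 and 3760. Both D2 libraries were above both B6 libraries in all 14. The anchor of Hist1h4k, Hist1h2ak and Hist1h2bn (chr13:21745001-21770000) had 98.5 and 124 CPM in B6 and 256 and 329 in D2, so that the log2 fold change was 1.40 (SE 0.154, FDR 6.1e-12). The anchor of 9 histone genes from Hist1h1c to Hist1h1a and of Trim38 (chr13:23735001-23770000) had 98.5 and 162 against 324 and 353.

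The histone difference was not limited to chromosome 13. On chromosome 3, the anchor of Hist2h2aa1, Hist2h4 and their neighbours had 314 and 339 CPM in B6 and 519 and 489 in D2, a log2 fold change of 0.63, and the anchor of Hist2h2ab, Hist2h2ac and Hist2h2be had 139 and 127 against 185 and 188, with 0.49. Hist4h4 on chromosome 6 was higher by 0.68. On chromosome 11, Hist3h2a had 57.0 and 48.6 CPM in B6 and 86.3 and 67.0 in D2 and did not pass the test (log2 fold change 0.53, FDR 0.091). The list was called in 10 of 14 anchors without B6 replicate 1, with a median of 0.85, in 11 by DESeq2 and in 14 with the GC trend removed. The 10 histone anchors of chromosome 13 lay in 2 runs, of 9 anchors (chr13:21710001-22055000) and of 6 (chr13:23530001-23780000). Histone genes are near-identical copies, so reads may have been divided among them. A read pair joining 2 of these anchors counts in both and enters the summed level from each, so the 14 anchors are not separate measurements. Among RefSeq promoters of 58 of the 64 genes, CCAAT occurred in 84.5% and TATAAA in 53.4%, against 39.7% and 7.15% of 8044 promoters of genes in tested anchors.

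Of 31 tested anchors of naive pluripotency factors, 3 were higher in D2 and 2 lower, a share of 16.1% beside 10.1% of all promoter anchors, and the median was 0.04. Sox2 had 271 and 267 CPM in B6 and 400 and 372 in D2, a log2 fold change of 0.52 (FDR 0.002). Klf4, with 72.6 and 94.6 against 123 and 112, and Tdgf1, with 328 and 256 against 404 and 421, were higher by 0.51 and 0.49. Sall4, a zinc finger partner of Pou5f1, had 736 and 524 against 473 and 466 and was lower by 0.43 on the log2 scale. Lin28a, an RNA-binding repressor of let-7, had 129 and 116 against 81.8 and 77.1, a log2 fold change of -0.63. Pou5f1, Nanog, Esrrb, Klf2 and Tbx3 were not called, with log2 fold changes of -0.13, 0.05, 0.12, -0.06 and 0.13. With B6 replicate 1 left out, 2 were higher and 0 lower, and without either D2 replicate 1 was higher and 0 lower.

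The signalling and state lists held from 12 to 18 tested anchors each. In the WNT list 4 of 16 anchors were higher and 1 lower, namely Lef1 (24.9 and 23.0 CPM in B6, 38.6 and 64.5 in D2), Axin1, Fzd5 and Fzd7 higher and Tcf7l2 (122 and 143 against 78.4 and 87.2) lower, while the median of -0.01 lay at the background and DESeq2 called 0 of them. Lef1 and Tcf7l2 encode transcription factors that bind beta-catenin. Among 12 formative and primed genes, Lef1 and Etv4, an ETS factor downstream of FGF signals, were higher, Etv4 with 61.2 and 69.0 CPM in B6 and 109 and 133 in D2. The median log2 fold change of these 12 was 0.41, beside 0.05 over all promoter anchors, and it lay between 0.29 and 0.51 in the alternative fits. The libraries of D2 and B6 did not overlap at 7 of the 12, against 50.4% of all anchors. Among 18 BMP and TGF-beta genes, the ligand gene Bmp4 (35.3 and 37.1 against 69.3 and 61.9) and the receptor gene Bmpr2 were higher and 0 lower. The LIF and STAT3 list had 1 of 15 lower, the kinase gene Pim3 with 92.3 and 78.0 against 53.4 and 56.9, and 0 higher. Pim3 was not called by DESeq2, with the GC trend removed, or without B6 replicate 1 or either D2 replicate. The WNT list had 3 higher and 1 lower without B6 replicate 1, 2 and 1 without B6 replicate 2, 2 and 0 without D2 replicate 1, and 1 and 1 without D2 replicate 2. The BMP and TGF-beta list had 1 higher without any single parental library and 0 by DESeq2. The formative and primed list had 3 higher without B6 replicate 1, 1 higher without D2 replicate 2, and 5 with the GC trend removed. These shares are based on few anchors, and several are near the background of 10.1%.

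Imprinted genes, which are expressed from a single parental allele, were called in 6 of 11 anchors (54.5%), 5 higher and 1 lower, with a median of 0.32. Over all promoter anchors the share was 10.1% and the median 0.05. The anchor of Peg3 and Usp29 had 52.9 and 47.3 CPM in B6 and 81.8 and 98.6 in D2, a log2 fold change of 0.83 (FDR 0.0027). Mest, with 24.9 and 15.3 against 43.2 and 43.0, Impact, with 86.1 and 84.3 against 136 and 181, and Zrsr1, with 80.9 and 72.8 against 127 and 135, were higher by 1.06, 0.89 and 0.76. Commd1, the host gene of Zrsr1 and so of the same locus, had 314 and 328 against 435 and 487. Slc38a4, an amino acid transporter gene, was lower, with 163 and 192 against 136 and 118. DESeq2 called 3 of the 11, all higher, and without B6 replicate 1 the counts were again 5 and 1. Without D2 replicate 2, 2 were higher and 0 lower.

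Chromatin regulators were called at shares between 3.85% and 14.3% per list, around the 10.1% of all promoter anchors. Of 21 Polycomb and Trithorax anchors, Suz12 and Mtf2, subunits of Polycomb complex PRC2, were higher by 0.42 and 0.34 and the demethylase gene Kdm5b was lower, with 1741 and 1581 CPM in B6 and 1259 and 1335 in D2. The DNA methylation and heterochromatin list had 1 of 26 higher, the methyltransferase gene Ehmt1. The list of cohesin and CTCF had Nipbl higher and Pds5a lower of 16, and that of acetylation enzymes and readers had Ep300 and Sirt6 higher of 21, with log2 fold changes of 0.50 and 0.37. Ep300 encodes the acetyltransferase p300, which writes the mark measured here. In the cell cycle and p53 list Rb1 and Zmat3 were higher and Cdk1 lower of 20, and in glycolysis Eno1 was lower of 17, from 631 and 506 CPM to 383 and 368. Ribosomal protein genes had 3 higher and 3 lower of 81, 2-cell-like genes 0 of 7 and Hox genes 0 of 4.

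Several of these calls were lost when 1 library was left out. The lists of cohesin and CTCF, of DNA methylation and heterochromatin, and of cell cycle and p53 had 0 calls without B6 replicate 1, without D2 replicate 2 and with DESeq2. Without B6 replicate 2 the cell cycle and p53 list had 0 higher and 3 lower, and the DNA methylation and heterochromatin list 0 higher and 2 lower. The acetylation list had 2 calls without B6 replicate 1 but had 0 with DESeq2, with the 4 parental libraries alone, and without B6 replicate 2, either D2 replicate or either D2-13B6 replicate. The Polycomb and Trithorax list had 2 higher and 0 lower without B6 replicate 1 and 0 calls without D2 replicate 2. Ribosomal protein genes had 1 higher and 1 lower without B6 replicate 1 or D2 replicate 1, 2 higher and 6 lower without B6 replicate 2, and 8 higher and 2 lower with the GC trend removed. The glycolysis list had 1 lower and 0 higher in every alternative run.

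Families with many similar copies held some of the largest differences of single genes. The families below had from 1 to 29 tested anchors each, and 10.1% of all promoter anchors were called. Among the Pramel genes, 2 of 5 were higher, with Pramef17 at 2.07 and 7.67 CPM in B6 and 51.1 and 45.5 in D2 (log2 fold change 3.37, FDR 5.3e-10) and Pramef6 at 11.4 and 15.3 against 35.2 and 37.9. Among Nlrp genes, Nlrp9c was higher, at 32.1 and 49.8 against 85.2 and 93.5, and Nlrp4f lower, of 4. The H2 list had H2-T24 and H2-T3 higher of 6, and the protocadherins Pcdh19 and Pcdhga1 higher of 4. The single tested Obox gene, Obox6, was lower, at 230 and 220 against 133 and 135, as was the single butyrophilin gene, Btn2a2, at 477 and 528 against 144 and 162. Olfactory receptor genes had 3 higher and 1 lower of 29, with Olfr924 at 8.30 and 8.95 CPM in B6 and 45.4 and 46.8 in D2. Calls left without B6 replicate 1 were 1 Pramel gene, 1 H2 gene, 1 olfactory receptor gene in each direction and 0 protocadherin genes, while the Nlrp, Obox and butyrophilin counts did not change. The H2 and protocadherin lists had 0 calls by DESeq2 and without D2 replicate 1. Reads from such copies may be placed on the wrong member, so each of these genes is uncertain.

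Zinc finger genes named Zfp had 13 higher and 22 lower of 259 anchors, a share of 13.5% with a median of 0.01. Zfp52 was at 25.9 and 44.7 CPM in B6 and 106 in both D2 libraries, and Zfp991 at 21.8 and 33.2 against 7.95 and 6.32. The Zfp counts were 5 higher and 10 lower without B6 replicate 1, 10 and 8 without D2 replicate 1, 3 and 13 without D2 replicate 2, and 4 and 10 by DESeq2. Solute carriers had 10 higher and 10 lower of 160, with 2 and 3 without B6 replicate 1, 7 and 1 without D2 replicate 1 and 3 and 4 without D2 replicate 2, and serpins had 0 of 10. Glutathione transferase genes, whose enzymes conjugate electrophiles, had 4 of 11 lower and 0 higher, 36.4% beside 10.1% of all promoter anchors. Gsto1 had 61.2 and 39.6 CPM in B6 and 17.0 and 27.8 in D2, Gsto2 had 32.1 and 23.0 against 7.95 and 12.6, Gstp3 had 56.0 and 31.9 against 23.9 and 21.5, and the anchor of Gstp1 and Gstp2 had 124 and 93.3 against 71.6 and 54.3. None of the 4 was called without B6 replicate 1 or by DESeq2. The innate immune list had 1 of 13 lower, the peptidoglycan sensor gene Nod1, with 425 and 391 CPM in B6 and 86.3 and 92.3 in D2.

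**Figure D4:**
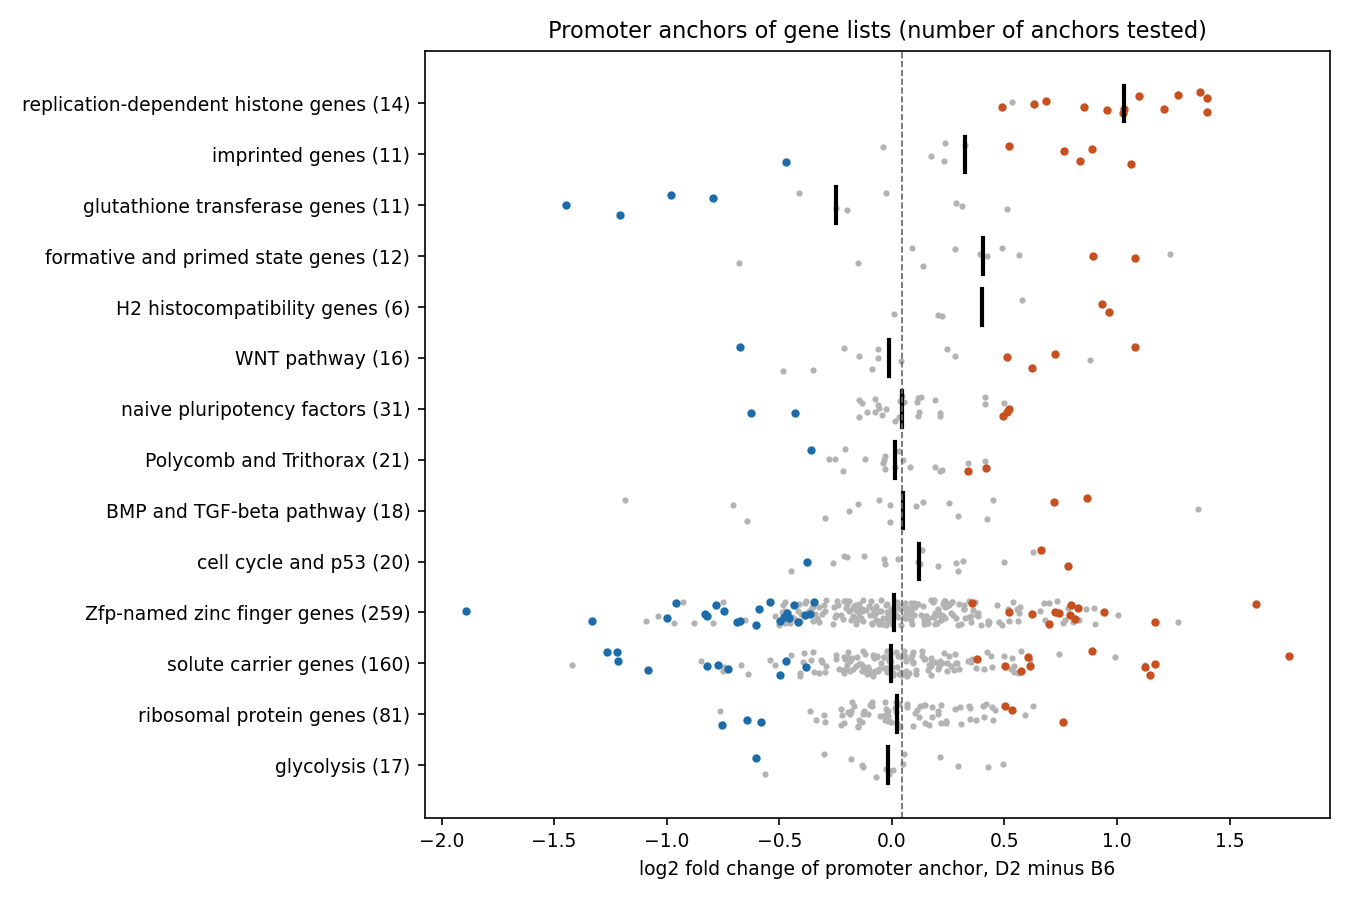
Log2 fold change (D2 minus B6) of each tested promoter anchor in 14 gene lists, orange where called higher in D2, blue where called lower, grey where not called, with the list median as a black bar and the median of all promoter anchors as a dashed line. The histone anchors lie to the right, 13 of 14 of them called, while the pluripotency factors centre on the median of all promoter anchors.

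At Glo1 a block of 3 neighbouring anchors was higher in D2. DBA/2J is known to carry a duplicated DNA segment that includes Glo1, and copy number was not measured here, so more DNA and more acetylation or contact cannot be told apart. The anchor in the body of Btbd9 (chr17:30555001-30565000) had 46.7 and 51.1 CPM in B6 and 96.6 and 133 in D2. Glo1 itself (chr17:30590001-30615000) had 247 and 212 against 535 and 543, a log2 fold change of 1.23 (SE 0.126, FDR 3.61e-13). The anchor of Dnah8, a dynein heavy chain gene, with another start of Glo1 (chr17:30620001-30640000) had 155 and 124 against 300 and 342. The log2 fold changes of the 3 were 1.22, 1.23 and 1.19. The tested anchors on either side, in Btbd9 at chr17:30530001-30535000 and at chr17:30880001-30885000, had 0.19 and 0.38 and were not called.

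Loops longer than 500 kb were called rarely but nearly always in 1 direction: 16 were higher in D2 and 1 lower, of 3092 tested (0.55%). The loop between the anchor of Gm6871 and 2610021A01Rik and that of Zfp141, 922.5 kb apart on chromosome 7, had 4 and 13 counts in B6 and 91 and 122 in D2, so that the log2 fold change was 3.72 (SE 0.287, FDR 7.24e-35). On chromosome 4, Zfp981 was joined to Zfp985 by 0 and 4 counts in B6 and 20 and 21 in D2, and to Zfp984 by 0 in both B6 libraries and 9 and 10 in D2. These are genes of zinc finger clusters, whose copies are alike, so reads may be placed on the wrong member. A distal loop of 542.5 kb on chromosome 1 had 4 and 2 counts against 18 and 36.

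Histone clusters made several of the other long loops. Contacts between the Hist1h2ah anchor and the Hist1h1c anchor, 1715 kb apart, had 1 and 2 counts in B6 and 12 in each D2 library, and those between Hist1h2ah and Hist1h4h had 10 and 11 against 24 and 29. The only lower long loop also began at Hist1h2ah and led to Btn2a2, with 14 and 12 counts in B6 and 5 and 1 in D2. Trim24 and Mkrn1, 1565 kb apart, had 6 and 12 against 22 and 23, and Glo1 and Wdr4 had 2 and 0 against 7 and 9. Many of these counts are small, and DESeq2 called 3 of the 17, all higher. Without B6 replicate 1 there were 7 higher and 1 lower, without D2 replicate 1 there were 10 and 1, and without D2 replicate 2 there were 9 and 1.

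The share of all counts at each distance did not separate the lines. Pairs inside an anchor took 31.3% and 29.3% of the counts in B6 and 29.5% and 30.9% in D2, and pairs beyond 500 kb 8.35% and 10.7% against 10.2% and 9.95%. Promoter-promoter loops took 21.6% and 21.4% in B6 and 22.5% and 22.3% in D2, the only class of 9 without overlap. Its two-sided exact permutation p was 0.333, the smallest that 2 libraries against 2 can give. The median log2 fold change of 471 chromosome X anchors was 0.30. Of these 11.3% were called, close to the 11.8% of all anchors, 43 higher and 10 lower. Chromosome X held 1.19% and 1.31% of the counts in B6, 1.42% and 1.50% in D2, 1.48% and 1.36% in B6-13D2 and 1.41% and 1.39% in D2-13B6, so the congenic lines overlapped. Without B6 replicate 1 the X median was 0.25 with 13 higher and 7 lower, and without D2 replicate 2 it was 0.25 with 11 and 6.

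The congenic lines gave a second pair of D2 and B6 backgrounds. Chromosome 13 was left out, because the background and the interval differ there. Of the 1102 loops called between D2 and B6 elsewhere, 965 (87.6%) had the same sign in D2-13B6 against B6-13D2, against 58.1% of all tested loops. The congenic pair called 8.59% of all tested loops, and 569 of these 1102 in the same direction and 19 in the opposite one. Of the 2384 anchors called elsewhere, 1972 (82.7%) had the same sign, against 61.5% of all tested, and 1223 were called in the same direction and 81 in the opposite one, where the congenic pair called 24.5% of all tested anchors. With chromosome 11 left out too, the same-sign shares were 88.3% and 83.6%. Of called distal-distal loops 91.6% had the same sign (61.4% of those tested), and of called promoter-promoter loops 84.9% (55.9% of those tested). Loops share anchors and read pairs and are not replicates, so the difference between these classes was not tested.

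**Figure D5:**
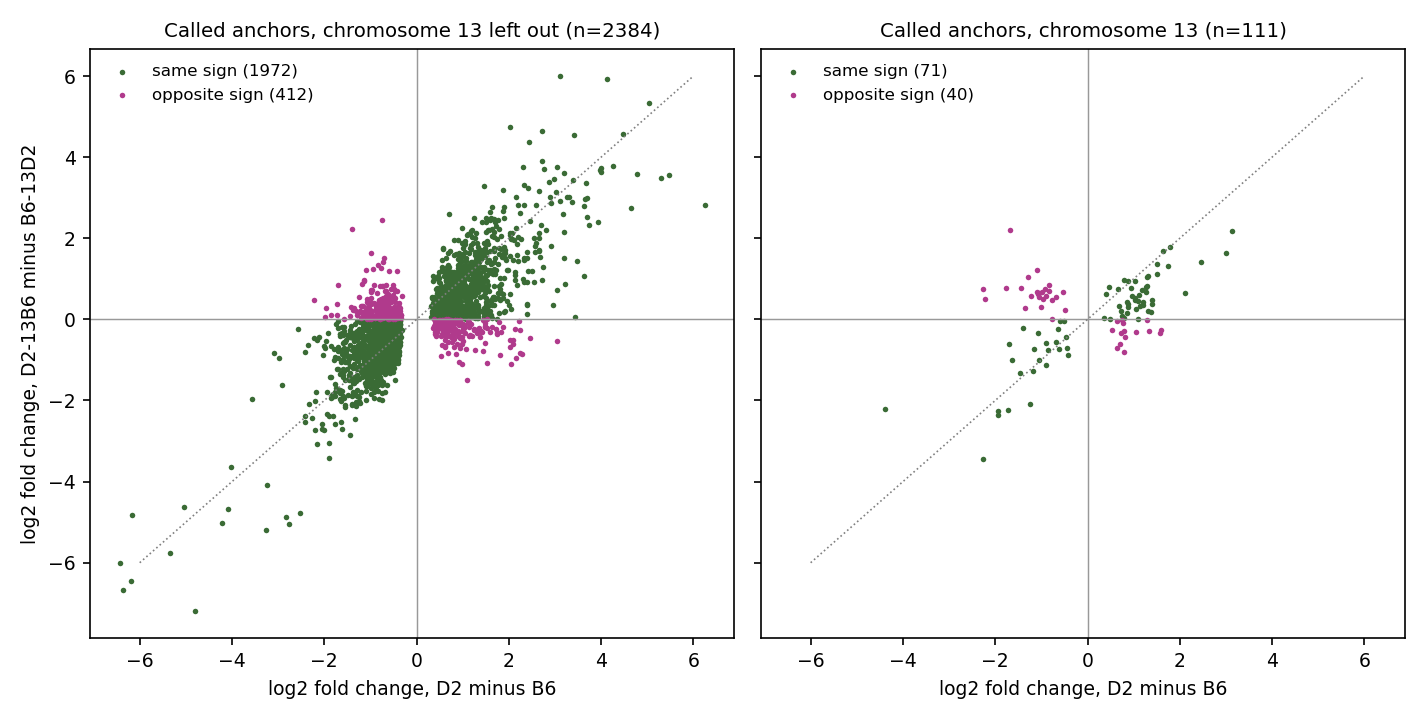
Log2 fold change of each called anchor in D2 minus B6 (x axis) and in D2-13B6 minus B6-13D2 (y axis), with chromosome 13 left out on the left and chromosome 13 alone on the right, green for the same sign and purple for the opposite sign, and the dotted line marking equal values. Off chromosome 13, 1972 of 2384 anchors have the same sign, and on chromosome 13 the number is 71 of 111.

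Single genes fared differently in the congenic pair. Trim12a had 81.0 and 73.2 CPM in B6-13D2 and 2.23 in both D2-13B6 libraries, Stard3nl 180 and 155 against 33.4 and 36.5, and Glo1 271 and 325 against 641 and 621, each in the parental order. The run of Lsm14a and Kctd15 had 746 and 767 CPM against 3079 and 3101, and all 11 of its anchors were called in the parental direction. In contrast, the run of Kif11 and Ide had 524 and 557 in B6-13D2 and 490 and 478 in D2-13B6, with 0 of 7 anchors called. The B6 libraries, at 1360 and 1263, were the high ones of the 8. Obox6 was in the opposite order, with 51.9 and 50.1 CPM in B6-13D2 and 281 and 275 in D2-13B6.

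On chromosome 13, 50 of 83 called loops and 71 of 111 called anchors had the same sign in both pairs. The exceptions were concentrated between 55 and 70 Mb, a window set after seeing the data: there 0 of 20 called loops and 6 of 29 called anchors had the same sign, and outside it 50 of 63 loops and 65 of 82 anchors did. Nlrp4f, in the window, had 157 and 145 CPM in B6-13D2 and 277 and 239 in D2-13B6, the reverse of the parental order. A run of 5 anchors with Zfp87, Zfp748 and Zfp729b (chr13:67525001-67630000) had 477 and 466 CPM in B6, 264 and 219 in D2, 258 and 230 in B6-13D2 and 391 and 377 in D2-13B6. At both loci the libraries of D2 and B6-13D2 were low and those of B6 and D2-13B6 high.

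The histone anchors behaved otherwise. Their summed level was 3459 and 3456 CPM in B6-13D2 and 4201 and 5421 in D2-13B6, so B6 was the low line of the 4 and the congenic median was 0.48 against 1.03 in the parental pair. The Hist1h4k anchor had 241 and 234 CPM in B6-13D2 and 296 and 368 in D2-13B6. B6-13D2, which has a B6 background, was thus close to D2 in the summed level, and D2-13B6 was the highest of the 4 lines.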

How the data were processed

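H3K27ac HiChIP read pairs were counted per loop in 8 libraries. The authors deposited whole-number counts of read pairs per loop, not normalized, and a count file per pair of 5-kb bins for each library. Per the labels' protocols, chromatin was digested with micrococcal nuclease and sequenced as pairs of 150 bp. Per the submitters' processing notes, the build was mm10 and BWA 0.7.18, SAMtools 1.19.2 and edgeR 3.34.1 were used, with no role stated. The loop caller is not given in the sources used here. The reference is a C57BL/6J genome, so reads of D2 carry more mismatches to it, and the effect on their counts was not tested.

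Loops needed 5 counts, and anchor sums 10 counts, in 2 or more libraries. The deposited counts were fitted in R 4.3.3 with edgeR 4.0.16 (quasi-likelihood test, TMM factors), a mean for each of the 4 lines and all 8 libraries. P-values were adjusted by Benjamini-Hochberg over every loop or anchor tested, and calls made at an FDR of 0.05. The same fit was also run on simulated counts with known changes, and its outcome there is not given here. An SE is that of the log2 fold change. Promoter anchors hold a start of a protein-coding gene, and distance is that of anchor midpoints. Read pairs carried no molecular identifiers. Library totals from 737955 to 1425304 limit the precision.

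The members and gene lists were chosen with earlier results of these data known. Named loops were the 2 higher and 2 lower with the smallest FDR in each of 5 classes, called and without overlap between the lines, at least 1 Mb apart, with the 6 strongest loops left out. Named anchors were the 8 higher and 8 lower promoter anchors by the same rule. Genes of the lists were named where called. Genes and regions of the runs, long loops, the Glo1 block and marker genes were chosen after their values were seen. Alternatives were other scalings, filters, DESeq2 1.42.0, a replicate block and leaving out each library. Columns of other samples numbered 0. Sequences came from RefSeq for GRCm38.p6.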

Additional observations from a re-analysis of the deposited data

Results flagged for a closer look

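For 8 named loops and anchors, the difference between D2 and B6 was itself different from that between D2-13B6 and B6-13D2, in an edgeR quasi-likelihood test of the parental minus the congenic log2 fold change adjusted by Benjamini-Hochberg over every loop or anchor tested. The loop inside the anchor of Gm49345 and Zfp729a on chromosome 13 had a difference of 6.21 (FDR 1.92e-31), with 9 and 3 counts in B6, 47 and 49 in D2, 57 and 56 in B6-13D2 and 6 and 9 in D2-13B6. The loop from Nlrp4f to a distal anchor had -2.24 (FDR 2.78e-10) and the Nlrp4f anchor -2.22 (FDR 1.36e-15). The distal loop at chr13:19950001-19970000 had 1.66 (FDR 0.0099), with 11 and 12 counts in B6, 142 and 153 in D2, 23 and 23 in B6-13D2 and 109 and 126 in D2-13B6. It was higher in the D2 background in both pairs, and the test was lost without B6 replicate 1, D2 replicate 2 or B6-13D2 replicate 1 and with no filter on counts, the largest FDR being 0.246.

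The Hist1h4k anchor had a difference of 0.92 (FDR 0.0011), higher in D2 and in D2-13B6, and was lost without D2 replicate 2 and in the sum of loops inside the anchor. Txlnb on chromosome 10 had 1.39 (FDR 2.32e-06), with 175 and 154 CPM in B6-13D2 and 190 and 160 in D2-13B6. Slc35g1 on chromosome 19 had 1.31 (FDR 2.49e-07), with 247 and 243 CPM in B6-13D2 and 206 and 225 in D2-13B6. At both genes B6 was the low line of the 4. Ypel2 on chromosome 11 had -1.47 (FDR 6.25e-11), with 371 and 399 CPM in B6-13D2 and 515 and 514 in D2-13B6. Chromosome 11 held more of the D2-13B6 counts, and with a TMM factor per chromosome the Ypel2 value was -0.96 (FDR 5.12e-06). The 6 not described as lost passed in every alternative fit.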

How the results depend on the processing

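The count of called loops was 338 with DESeq2, 476 with no filter, 748 with loops inside 1 anchor left out of the fit and 650 at an FDR of 0.01, and ranged from 491 to 1200 when each library was left out in turn. The count of called anchors was 855 with DESeq2, 552 with the sum of loops inside the anchor only (4013 tested) and 1325 at an FDR of 0.01, and ranged from 1075 to 2733 with each library left out. The same-sign share in the congenic pair was 90.6% for loops and 86.6% for anchors at an FDR of 0.01, and ranged over left-out libraries from 83.2% to 93.0% for loops and from 76.8% to 89.2% for anchors. The Samd9l anchor turned to -0.029 (FDR 0.988) with loops inside the anchor only. The causes were not tested. Other scalings, the 4 parental libraries alone and stricter filters gave counts within 1.5-fold, and no scaling moved the median of all tested anchors by 0.1. Of 690 fits of named features, 1 lost its call.

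With a replicate block the counts were 1086 loops and 2179 anchors, all called without it. Deviations of libraries with the same replicate number correlated at 0.0014 for loops and 0.0213 for anchors between B6 and D2. Over all pairs of lines the values largest in size were those of B6 and B6-13D2, at -0.0453 for loops and -0.149 for anchors. The replicate numbers were taken to name the samples and not to pair them.

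Loops had a median of 5 to 7 counts per parental library, so differences at single loops of that depth were often not detectable. Each strain was 1 line with technical replicates. DNA copy number and mapping of DBA/2J reads were not measured.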
